A study of Mus musculus with 2 samples.

Results

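The interferon response and MHC class I module is a set of 41 mouse genes that act in interferon sensing, interferon signalling, antiviral defence and the display of peptides at the cell surface. The genes were listed by name, and each was read from the array through a probe set whose annotation holds that 1 gene symbol. Where several such probe sets existed, the one with the highest mean of both samples stood for the gene. Values were available for 40 of the 41 genes, out of 22180 genes measured in this way. The probe set naming H2-D1 also names another class I gene, so H2-D1 is not analysed here.

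The study set a stable mouse embryonic stem cell line carrying EWS-OCT4A-GFP against a stable line carrying GFP. EWS-OCT4A is a fusion of the RNA-binding protein EWS with OCT4A, the pluripotency form of the POU factor OCT4, and some human tumours carry such a fusion. The labels trace both lines to the same embryonic stem cells, named Niwa. They were kept in LIF-containing medium, and both received doxycycline at 1 µg/ml, which turns down their own OCT-4. Each line gave 1 sample of total RNA on a whole-transcript Affymetrix array, and the series title names Fgf4 as a target of the fusion. What drives the transgene, how long doxycycline was applied and whether a line is a clone are not given in the sources used here, and cells without doxycycline were not analysed here.

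With 1 sample a line, no difference below has a replicate check or a p-value, and all counts are counts by size. The deposited values are RMA signals taken as log2 and are called log2 values here. A gene is called higher or lower where EWS-OCT4A-GFP minus GFP is at least 1 on the log2 scale in size (2-fold) and at least 1 of its values reaches 4.10, the median of all deposited values, which serves as a floor for weak signals. The medians of the samples were 4.11 in EWS-OCT4A-GFP cells and 4.08 in GFP cells. Levels of different genes are not compared, since each probe set responds to its own transcript in its own way.

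Interferons are secreted proteins that bind paired receptors on the cell surface. Type I interferon acts through IFNAR1 and IFNAR2 and type II interferon through IFNGR1 and IFNGR2. Receptor-bound JAK kinases then activate STAT proteins. A complex that holds STAT2 and IRF9 binds the interferon-stimulated response element (ISRE) at genes of antiviral defence, and STAT dimers bind the GAS element. MHC class I molecules consist of a heavy chain and beta-2-microglobulin, and are loaded in the endoplasmic reticulum with peptides that the TAP transporter brings in. Pluripotent stem cells are known for a weak response to interferon and low class I display, and for the constitutive expression of some interferon-induced genes such as Ifitm3.

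More members of the module were lower than higher in EWS-OCT4A-GFP cells, and the higher ones were Ifitm genes. Of the 40 measured genes, 14 (35.0%) were lower by 2-fold or more, against 7.25% of all 22180 genes, and 3 (7.5%) were higher by 2-fold or more, against 5.68% of all genes. The lower genes were B2m, H2-K1, Tap1, Tapbp, Ifnar1, Ifnar2, Ifngr2, Irf2, Ifih1, Ifi35, Isg15, Mx2, Bst2 and Rsad2. The higher genes were Ifitm1, Ifitm2 and Ifitm3, neighbours on chromosome 7. The other 23 members gave no call.

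The median difference over the 40 members was -0.43, with quartiles of -1.38 and 0.02, beside a median of 0.00 and quartiles of -0.31 and 0.34 over all genes. A difference below 0 was found for 28 members (70.0%), against 46.1% of all genes. The floor was reached by 31 members, and 9 stayed under it in both samples. Among all genes that reach the floor, 11.9% were lower by 2-fold or more and 9.31% higher. A gene can pass the floor through its higher value alone, so this share is a description of the array. For 3 of the 17 called members, Ifih1, Mx2 and Ifitm1, the lower value is so far under the floor that the difference falls below 2-fold when that value is set to the floor.

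**Figure D1:**
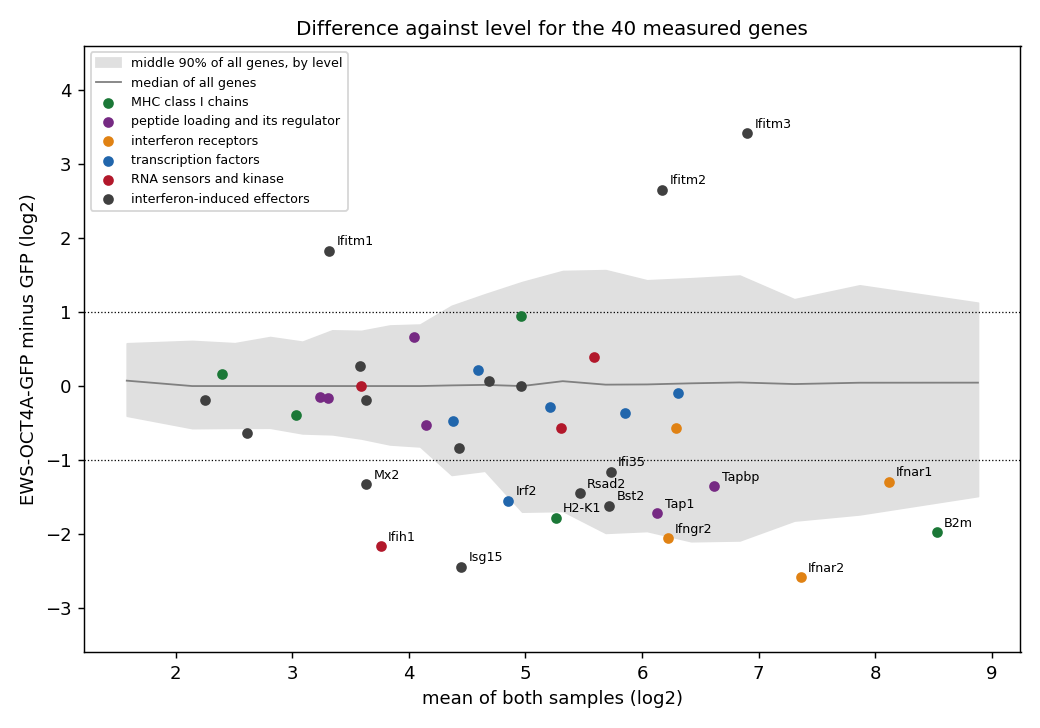
Difference (EWS-OCT4A-GFP minus GFP, log2) of each of the 40 measured genes against the mean of its 2 values (log2), coloured by role. The grey band holds the middle 90% of all genes in 20 bins of level, the grey line is their median, dotted lines mark 2-fold, and called members are named: 14 lie below the lower dotted line, and Ifitm1, Ifitm2 and Ifitm3 above the upper one.

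The promoters of some of these genes carry the binding element of the interferon-activated factors. From those, 6 are shown, of genes that differ in opposite ways or not at all in this comparison. Promoters of lower members without this element in the stretch, such as Tap1, Tapbp and Ifi35, are not shown. Each line holds the 250 bases upstream of the transcript start, 5′ to 3′ on the gene's strand, as RefSeq gives them for GRCm38.p6. Capitals mark matches to the ISRE core, searched as GAAA, any 2 bases and GAAA again on either strand, and to the GAS core TTCNNNGAA, which reads alike on both strands. Matches may overlap. B2m, Isg15, Bst2 and Rsad2 were lower in EWS-OCT4A-GFP cells, Ifitm2 was higher and Ifit3 differed little.

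B2m: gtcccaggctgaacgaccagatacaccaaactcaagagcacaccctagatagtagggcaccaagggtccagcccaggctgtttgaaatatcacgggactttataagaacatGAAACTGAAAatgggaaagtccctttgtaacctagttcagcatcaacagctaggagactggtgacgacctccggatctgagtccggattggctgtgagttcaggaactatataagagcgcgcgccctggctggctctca

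Isg15: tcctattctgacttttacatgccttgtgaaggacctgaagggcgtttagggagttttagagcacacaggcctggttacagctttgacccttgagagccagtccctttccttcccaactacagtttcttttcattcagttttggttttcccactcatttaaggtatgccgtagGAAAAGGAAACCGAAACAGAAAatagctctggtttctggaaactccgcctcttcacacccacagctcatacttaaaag

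Bst2: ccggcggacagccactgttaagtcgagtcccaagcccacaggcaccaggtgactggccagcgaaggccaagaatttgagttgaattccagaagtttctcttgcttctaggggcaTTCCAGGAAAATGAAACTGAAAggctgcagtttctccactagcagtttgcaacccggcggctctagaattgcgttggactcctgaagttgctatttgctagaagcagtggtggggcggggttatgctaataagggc

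Rsad2: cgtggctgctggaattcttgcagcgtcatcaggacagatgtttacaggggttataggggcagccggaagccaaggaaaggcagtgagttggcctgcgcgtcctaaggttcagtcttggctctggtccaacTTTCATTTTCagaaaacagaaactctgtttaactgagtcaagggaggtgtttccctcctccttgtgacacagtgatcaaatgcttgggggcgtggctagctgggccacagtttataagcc

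Ifitm2: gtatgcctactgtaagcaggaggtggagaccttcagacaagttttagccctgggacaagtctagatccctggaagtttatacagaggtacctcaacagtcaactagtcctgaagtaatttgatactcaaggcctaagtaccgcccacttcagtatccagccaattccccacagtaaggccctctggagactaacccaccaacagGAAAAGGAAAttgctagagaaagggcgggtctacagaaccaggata

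Ifit3: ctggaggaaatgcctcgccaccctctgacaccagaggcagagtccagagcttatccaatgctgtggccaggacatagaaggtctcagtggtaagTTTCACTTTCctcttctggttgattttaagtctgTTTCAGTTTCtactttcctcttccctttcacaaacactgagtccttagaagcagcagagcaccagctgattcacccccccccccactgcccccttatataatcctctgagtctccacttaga

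These stretches lie at chr2:122147437-122147686 (plus strand) for B2m, chr4:156200819-156201068 (minus strand) for Isg15, chr8:71537473-71537722 (minus strand) for Bst2, chr12:26456453-26456702 (minus strand) for Rsad2, chr7:140955962-140956211 (minus strand) for Ifitm2 and chr19:34583279-34583528 (plus strand) for Ifit3. The stretch of Isg15 holds 3 overlapping ISRE cores, that of Bst2 holds 2 overlapping ones, the more upstream of which also overlaps a GAS core, and that of Ifit3 holds 2 apart from each other. In B2m, Rsad2 and Ifitm2 there is 1 ISRE core each. The ISRE core of Ifitm2 begins 46 bases before the start and that of B2m 139 bases before it.

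Promoter windows of 300 bases, which add 50 bases after the start, were found for 34 of the 41 genes, in 40 windows. The ISRE core was present in 15 of these 40 windows (37.5%), against 1131 of 32851 windows of all genes (3.44%). It was in 6 of the 14 windows of lower members (42.9%), namely those of B2m, Bst2, Ifih1, Irf2, Isg15 and Rsad2. Of the 22 windows of measured members without a call, 7 held it (31.8%). Some genes have several windows, and the 14 come from 13 genes and the 22 from 17. By gene, the core was thus found for 6 of 13 lower members and 7 of 17 without a call. The windows of Ifitm2 and Ifitm3 hold it and that of Ifitm1 does not. The GAS core was in 11 of the 40 windows (27.5%), against 8.30% of all windows, and the octamer ATGCAAAT, the classical site of OCT factors, in 1 (2.5%, in Irf3), against 1.74%. These are matches of letters, not measured binding. The members were listed by name as interferon and class I genes, so a high ISRE share describes the list, not this comparison.

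The light chain of MHC class I was lower in EWS-OCT4A-GFP cells, and so was 1 of the module's 4 measured heavy chain genes. B2m, which encodes beta-2-microglobulin, read 7.54 in EWS-OCT4A-GFP cells and 9.52 in GFP cells. Its difference of -1.98 is a 3.94-fold lower signal, at a level well above the floor in both samples. H2-K1, a classical heavy chain that presents peptides to CD8 T cells, read 4.37 in EWS-OCT4A-GFP cells and 6.15 in GFP cells. That is a difference of -1.78, and the EWS-OCT4A-GFP value lies close to the floor.

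The non-classical heavy chains of the module gave no call. H2-M3, which presents formylated peptides, read 5.44 in EWS-OCT4A-GFP cells and 4.49 in GFP cells, a difference of 0.95, just under 2-fold. H2-T23, which encodes the heavy chain of Qa-1, read 2.48 in EWS-OCT4A-GFP cells and 2.32 in GFP cells. H2-Q10, a secreted class I molecule of liver, read 2.84 in EWS-OCT4A-GFP cells and 3.23 in GFP cells. Both genes stayed under the floor, and so did the other probe set of H2-Q10. Heavy chain genes are close copies of each other, so a probe set of one may take up transcripts of another.

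Among the genes of peptide loading, Tap1 and Tapbp were lower. Tap1, which encodes a subunit of the peptide transporter, read 5.27 in EWS-OCT4A-GFP cells and 6.99 in GFP cells, a difference of -1.72. Tapbp, which encodes tapasin, the bridge between transporter and class I molecule, read 5.95 in EWS-OCT4A-GFP cells and 7.30 in GFP cells, a difference of -1.35. Its second, weaker probe set read 4.34 in EWS-OCT4A-GFP cells and 4.73 in GFP cells. With the mean of both the difference was -0.87, under 2-fold. A further probe set, which names Tapbp together with Zbtb22 and was not used, read 5.17 in EWS-OCT4A-GFP cells and 5.49 in GFP cells.

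The partner and the relatives of these genes did not pass 2-fold. Tap2, the other transporter subunit, read 3.23 in EWS-OCT4A-GFP cells and 3.39 in GFP cells, both under the floor. Tapbpl, a tapasin-related protein that edits peptides, read 4.38 in EWS-OCT4A-GFP cells and 3.71 in GFP cells. Erap1, which trims peptides in the endoplasmic reticulum, read 3.89 in EWS-OCT4A-GFP cells and 4.41 in GFP cells. Nlrc5, the transactivator of class I genes, stayed under the floor with 3.16 in EWS-OCT4A-GFP cells and 3.31 in GFP cells.

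Genes that serve class I display outside the module differed little. Of the 6 measured genes for immunoproteasome subunits and the PA28 activator, 0 passed 2-fold, with a median of -0.24. Psmb8 read 3.98 in EWS-OCT4A-GFP cells and 4.10 in GFP cells, and Psmb9 3.75 in EWS-OCT4A-GFP cells and 4.12 in GFP cells, so these inducible subunits lay close to the floor or under it. Psmb10, the remaining inducible subunit, read 5.69 in both samples. Psme1, a PA28 subunit, differed by -0.74. The 3 constitutive catalytic subunit genes Psmb5, Psmb6 and Psmb7 had a median of 0.49, and the 7 folding chaperone genes one of -0.09, with Calr at -0.54 and Uggt1 at 0.62.

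Of 7 measured genes for factors that occupy class I promoters, 0 were called lower. Their protein and binding were not measured, and a role in the values of B2m and H2-K1 was not tested. Rfxap, a subunit of the RFX complex, differed by -0.55. Nfyb, a subunit of the CCAAT-binding factor NF-Y, was higher by 1.36. MHC class II genes, which antigen-presenting cells express, and their transactivator Ciita passed 2-fold in 0 of 10 cases. Of these 10 genes, 7 stayed under the floor in both samples, and Ciita read 4.99 in EWS-OCT4A-GFP cells and 4.96 in GFP cells.

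Other class I and class I-like genes were called at shares near those of all genes. Over 26 measured genes there were 2 calls in each direction (7.69%), beside 5.68% higher and 7.25% lower among all genes, and a median of -0.04. H2-M5 read 8.18 in EWS-OCT4A-GFP cells and 4.58 in GFP cells, a difference of 3.60. H60b, which encodes a ligand of the killer cell receptor NKG2D, read 5.34 in EWS-OCT4A-GFP cells and 2.86 in GFP cells. Ulbp1, another NKG2D ligand, went the other way with 4.25 in EWS-OCT4A-GFP cells and 7.03 in GFP cells, a difference of -2.78. These NKG2D ligands were thus called in opposite directions, with the GFP value of H60b under the floor. H60c, a relative of H60b, read 3.93 in both samples, also under the floor.

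**Figure D2:**
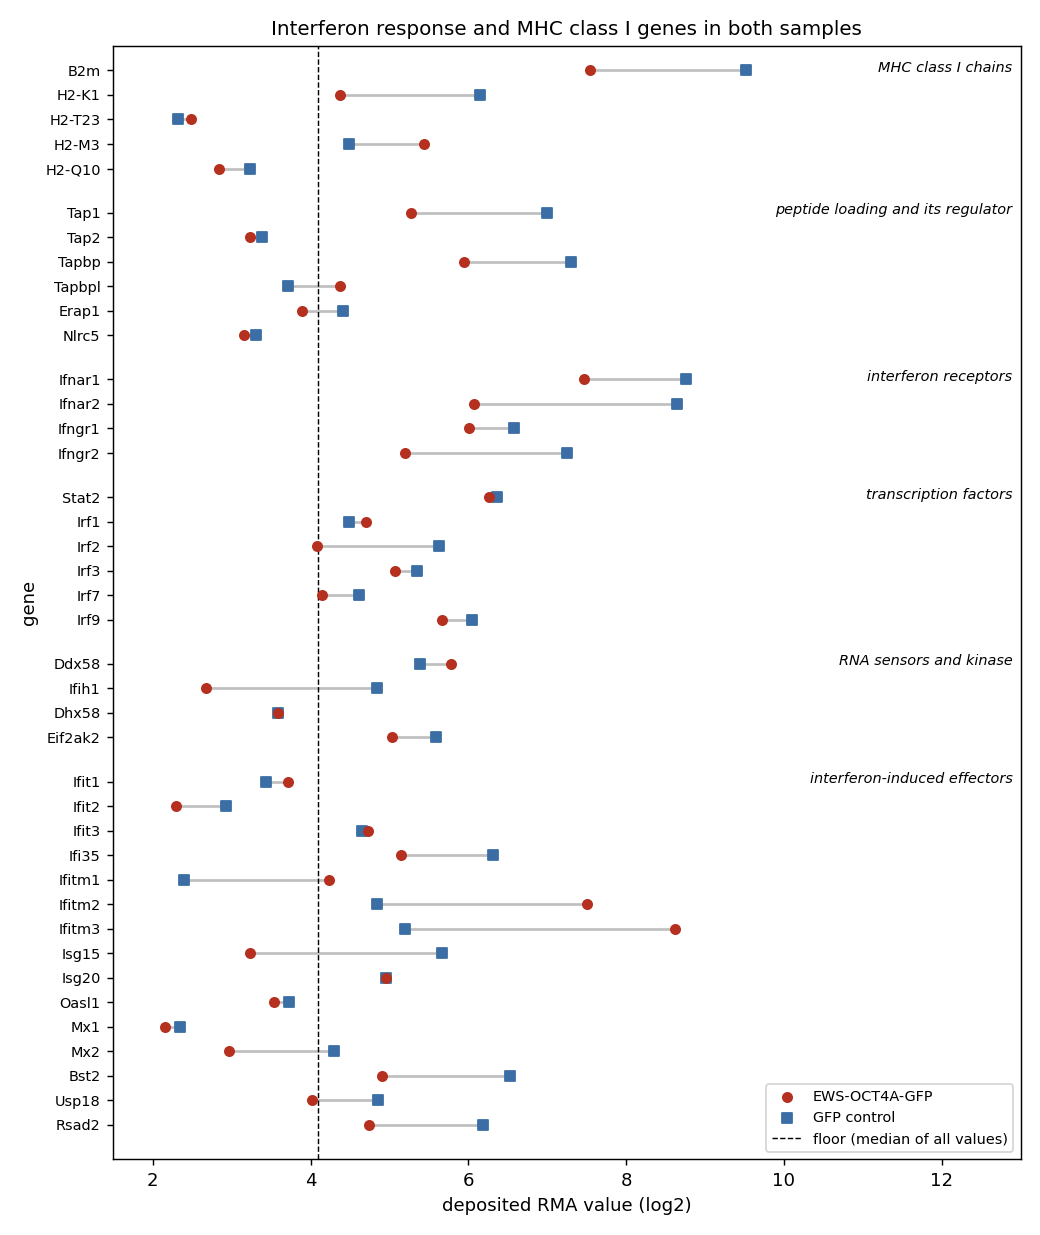
Deposited RMA values (log2) of the 40 measured genes, grouped by role, with EWS-OCT4A-GFP as circles, the GFP control as squares and the floor of 4.10 as a dashed line; each symbol is 1 sample. The receptor genes show the GFP square to the right of the circle in every row, whereas Ifitm1, Ifitm2 and Ifitm3 show the reverse.

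Interferon receptor genes were lower in EWS-OCT4A-GFP cells, with 3 of 4 called lower, every difference below 0 and a median of -1.67. Ifnar2, the signalling chain of the type I receptor, read 6.07 in EWS-OCT4A-GFP cells and 8.65 in GFP cells. Its difference of -2.58 was the largest in the negative direction among the 40 members. Ifnar1, the other chain, read 7.47 in EWS-OCT4A-GFP cells and 8.76 in GFP cells, a difference of -1.29. Ifngr2, the signalling chain of the type II receptor, read 5.19 in EWS-OCT4A-GFP cells and 7.25 in GFP cells, a difference of -2.06. Ifngr1, which binds interferon gamma, stayed within 2-fold with 6.01 in EWS-OCT4A-GFP cells and 6.58 in GFP cells.

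The 3 lower receptor genes are neighbours on chromosome 16 and share the cluster with Il10rb, a receptor chain used by interferon lambda and interleukin 10. Il10rb read 4.55 in EWS-OCT4A-GFP cells and 5.96 in GFP cells, a difference of -1.40. The uncharacterised gene A930006K02Rik, which lies within the cluster, read 4.40 in both samples. Next to the cluster, Tmem50b differed by -0.51, Dnajc28 by 0.07, Gart by 0.42 and Son by 0.19. On its other side Paxbp1 differed by 0.86, and Olig1 and Olig2 by -0.16 each, at or under the floor. Il10rb and the genes flanking the clusters were chosen after their values were seen. Ifnlr1, the partner of Il10rb in the interferon lambda receptor, read 4.50 in EWS-OCT4A-GFP cells and 5.79 in GFP cells, a difference of -1.29.

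The kinases that serve these receptors were split. Jak1, used by type I and type II receptors, read 6.86 in EWS-OCT4A-GFP cells and 8.37 in GFP cells, a difference of -1.51. Jak2, the partner of IFNGR2, read 5.26 in EWS-OCT4A-GFP cells and 6.99 in GFP cells, a difference of -1.73. Tyk2, the partner of IFNAR1, read 5.93 in EWS-OCT4A-GFP cells and 5.82 in GFP cells, a difference of 0.11. Over 20 measured genes for JAKs, STATs, their brakes and the lambda receptor, 5 were called lower and 1 higher, and the median was -0.06. The share called lower was above the 7.25% of all genes, and the share called higher was close to their 5.68%. The gene called higher was Stat4, with 6.27 in EWS-OCT4A-GFP cells and 3.41 in GFP cells. Pias1, a SUMO ligase that restrains STAT signalling, differed by -1.59.

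**Figure D3:**
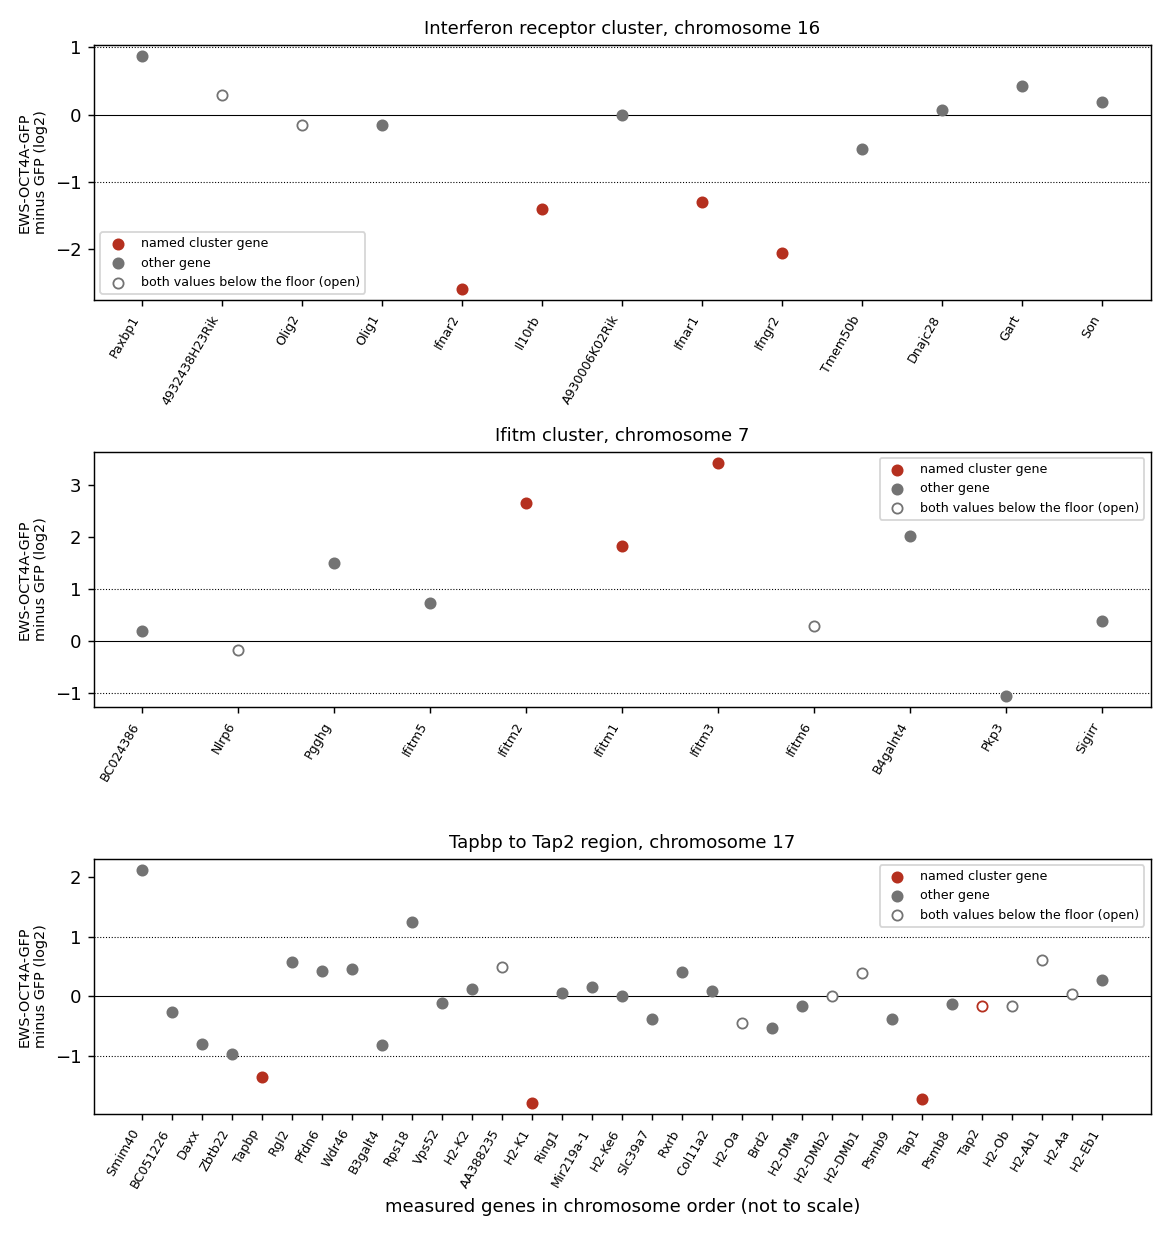
Difference (EWS-OCT4A-GFP minus GFP, log2) of measured genes in chromosome order (not to scale) around 3 groups of neighbouring genes, with dotted lines at 2-fold; filled red points are the genes of the cluster, grey points other genes, and open points genes with both values under the floor. The 4 receptor genes lie between -2.58 and -1.29, and the genes around them between -0.51 and 0.86.

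Interferon ligands gave no call. Of 19 measured ligand genes, 0 passed 2-fold, the median was 0.05, and 12 stayed under the floor in both samples. Ifna4 differed most among those at the floor, with 6.74 in EWS-OCT4A-GFP cells and 6.10 in GFP cells. Interferon alpha genes are near-identical, so the member is uncertain.

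Among the transcription factors, 1 of 6 was called lower (16.7%, against 7.25% of all genes), namely Irf2, and 0 were called higher. Irf2, which competes with IRF1 at interferon-responsive sites, read 4.08 in EWS-OCT4A-GFP cells and 5.63 in GFP cells, a difference of -1.55. The value in EWS-OCT4A-GFP cells lay just under the floor. Irf1, the activator it competes with, read 4.70 in EWS-OCT4A-GFP cells and 4.49 in GFP cells, a difference of 0.22.

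The remaining factors stayed within 2-fold, with a median over all 6 of -0.33. Stat2, which acts in the type I response, read 6.26 in EWS-OCT4A-GFP cells and 6.36 in GFP cells. Irf9, which gives that complex its DNA binding, read 5.67 in EWS-OCT4A-GFP cells and 6.04 in GFP cells, and Irf3, which switches on interferon genes after infection, 5.07 in EWS-OCT4A-GFP cells and 5.35 in GFP cells. Irf7, the amplifier of interferon production, read 4.14 in EWS-OCT4A-GFP cells and 4.61 in GFP cells. Stat2 and Irf9, which act downstream of the receptor chains, differed by -0.10 and -0.37. Of 5 other IRF and IRF2-binding protein genes 2 were called, both higher. Irf2bpl differed by 1.53, and Irf2bp1 read 5.68 in EWS-OCT4A-GFP cells and 4.58 in GFP cells.

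The cytoplasmic RNA sensors differed from each other. Ifih1, which encodes the long-RNA sensor MDA5, read 2.68 in EWS-OCT4A-GFP cells and 4.84 in GFP cells. Its deposited difference was -2.16, but it was 1.68-fold lower once the EWS-OCT4A-GFP value was set to the floor. Ddx58, which encodes RIG-I, the sensor of RNA ends, read 5.78 in EWS-OCT4A-GFP cells and 5.39 in GFP cells, a difference of 0.39. Dhx58, the third helicase of this family, read 3.59 in both samples. Eif2ak2, which encodes the RNA-activated kinase PKR, read 5.03 in EWS-OCT4A-GFP cells and 5.59 in GFP cells, a difference of -0.56.

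Genes of nucleic acid sensing and its signalling outside the module had more lower than higher calls, 4 (21.1%) and 0 of 19 measured. All genes gave 7.25% lower and 5.68% higher. The median of this list was -0.16. Myd88, the adaptor of Toll-like receptors, read 6.24 in EWS-OCT4A-GFP cells and 8.11 in GFP cells, a difference of -1.87. Ticam1 (-1.18), Sting1 (-1.12) and Tlr3 (-1.08) were lower with the EWS-OCT4A-GFP value under the floor. With the floor at the 75th percentile of all values or at 6, or with a 3-fold threshold, 1 of the 4 calls was left.

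Interferon-induced effectors differed in both directions, with 3 of 15 called higher, 5 called lower and a median of -0.20. The higher ones were Ifitm genes, which encode small membrane proteins that block the entry of viruses. Ifitm3 read 8.61 in EWS-OCT4A-GFP cells and 5.19 in GFP cells, a difference of 3.42 or 10.7-fold. Ifitm2 read 7.50 in EWS-OCT4A-GFP cells and 4.85 in GFP cells, a difference of 2.66 or 6.30-fold. Ifitm1 read 4.23 in EWS-OCT4A-GFP cells and 2.40 in GFP cells. Its difference of 1.83 is uncertain in size, since it becomes 0.13 with the GFP value set to the floor.

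The Ifitm genes are similar in sequence, so their probe sets may share signal. Ifitm5, a bone-specific relative in the same cluster, read 4.70 in EWS-OCT4A-GFP cells and 3.96 in GFP cells, a difference of 0.74. Ifitm6 stayed under the floor with 3.37 in EWS-OCT4A-GFP cells and 3.07 in GFP cells. Beyond the Ifitm genes, Pgghg read 5.49 in EWS-OCT4A-GFP cells and 3.99 in GFP cells, B4galnt4 differed by 2.02 and Pkp3 by -1.06, so flanking genes were called in both directions.

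Several antiviral effectors were lower. Isg15, a ubiquitin-like modifier strongly induced by interferon, read 3.23 in EWS-OCT4A-GFP cells and 5.67 in GFP cells. The difference was -2.44, and 2.98-fold with the EWS-OCT4A-GFP value set to the floor. Bst2, which encodes tetherin, a protein that holds budding virus at the membrane, read 4.91 in EWS-OCT4A-GFP cells and 6.53 in GFP cells, a difference of -1.62. Rsad2, which encodes the antiviral enzyme viperin, read 4.74 in EWS-OCT4A-GFP cells and 6.19 in GFP cells, a difference of -1.45. Their 3 promoters, shown above, were picked among those with an ISRE core, so its presence there is not a result about lower genes.

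Ifi35 and Mx2 were lower with less certain values. Ifi35, an interferon-induced leucine zipper protein, read 5.15 in EWS-OCT4A-GFP cells and 6.31 in GFP cells. Its second probe set went the other way, with 4.52 in EWS-OCT4A-GFP cells and 4.33 in GFP cells, and the mean of both gave -0.48. Mx2, a dynamin-like GTPase, read 2.97 in EWS-OCT4A-GFP cells and 4.30 in GFP cells, a difference that shrinks to 1.15-fold with the lower value at the floor. Usp18, the protease that removes ISG15 and restrains IFNAR2, read 4.01 in EWS-OCT4A-GFP cells and 4.85 in GFP cells, a difference of -0.84.

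The other effectors were weak or level. Ifit3, an RNA-binding antiviral protein whose promoter is shown above, read 4.73 in EWS-OCT4A-GFP cells and 4.65 in GFP cells. Its relatives Ifit1 (3.71 in EWS-OCT4A-GFP cells and 3.44 in GFP cells) and Ifit2 (2.30 in EWS-OCT4A-GFP cells and 2.93 in GFP cells) stayed under the floor. Isg20, an exonuclease, read 4.96 in both samples. Oasl1, which restrains IRF7, read 3.54 in EWS-OCT4A-GFP cells and 3.73 in GFP cells, and Mx1 2.15 in EWS-OCT4A-GFP cells and 2.35 in GFP cells, also under the floor. Isg15 and Ifit3 both carry more than 1 ISRE core upstream, and their differences were -2.44 and 0.08.

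A wider list of interferon-stimulated genes was mixed as well. Over 49 measured genes, 10 were called lower and 5 higher, and the median was -0.04. Both shares lay above those of all genes, which were 7.25% lower and 5.68% higher. With the floor at the 75th percentile 5 of the 49 were lower and 2 higher, and with the floor at 6 these counts were 4 and 2. Lgals9, which encodes galectin-9, read 6.04 in EWS-OCT4A-GFP cells and 10.6 in GFP cells, a difference of -4.58. Oasl2, an oligoadenylate synthetase relative, differed by -2.21 with the EWS-OCT4A-GFP value, 2.79, under the floor. Pml, the organiser of nuclear bodies, went the other way with 9.18 in EWS-OCT4A-GFP cells and 6.71 in GFP cells, a difference of 2.46, as did Phf11d with 5.12 in EWS-OCT4A-GFP cells and 3.05 in GFP cells.

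**Figure D4:**
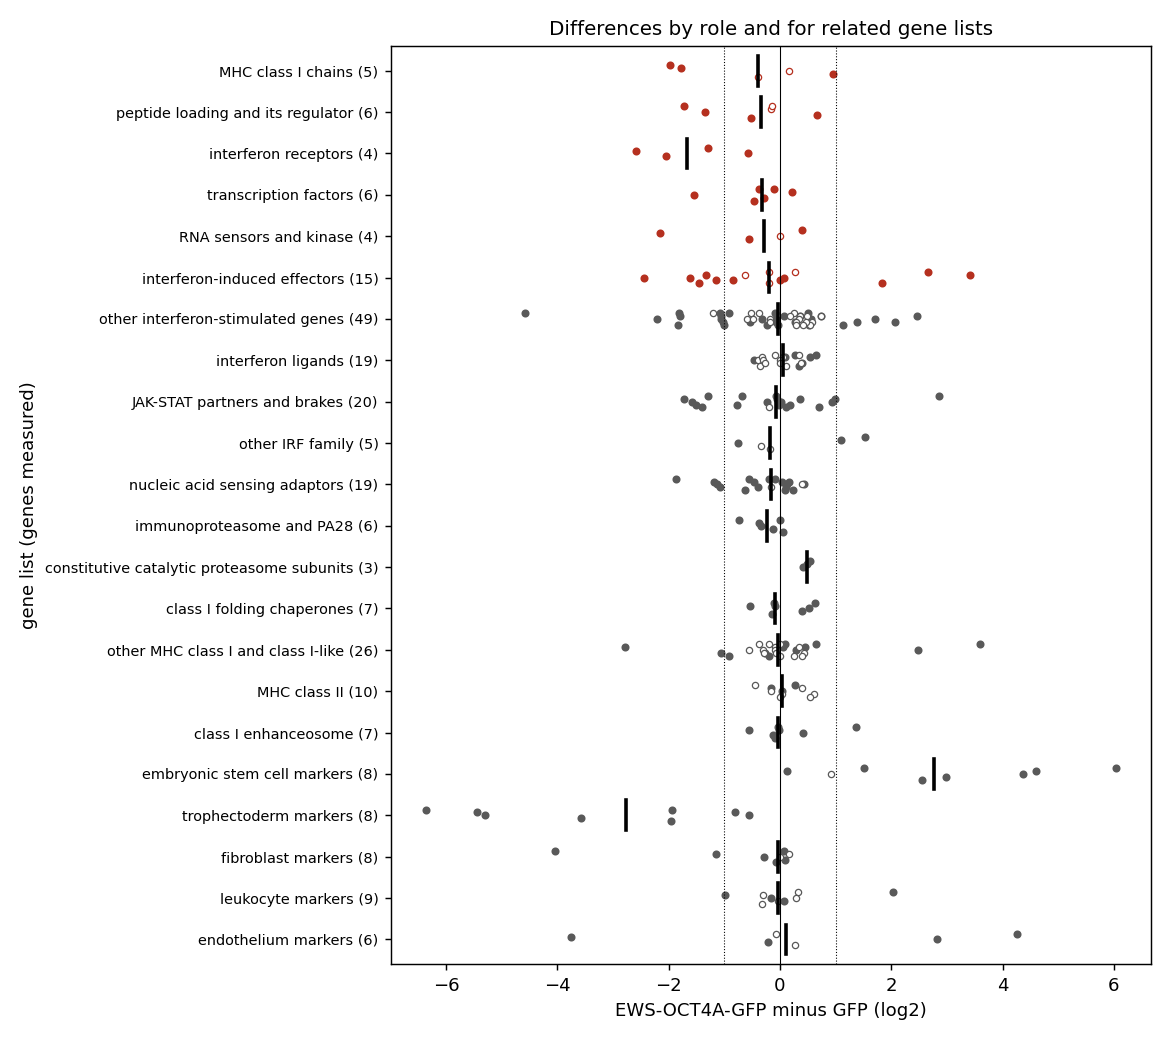
Difference (EWS-OCT4A-GFP minus GFP, log2) of each gene in the 6 roles of the module (red) and in 16 related lists (grey), with the number of genes measured beside each name; black bars are list medians, open points have both values under the floor, and dotted lines mark 2-fold. The receptor role has the lowest median of the roles (-1.67), and trophectoderm and stem cell markers have medians of -2.77 and 2.77.

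Markers of cell state differed alongside the module. Of 8 embryonic stem cell markers 6 were called higher, and their mean log2 value was 8.41 in EWS-OCT4A-GFP cells and 5.52 in GFP cells. Nanog, a core pluripotency factor, read 10.5 in EWS-OCT4A-GFP cells and 5.94 in GFP cells, whereas Pou5f1 read 5.37 in EWS-OCT4A-GFP cells and 5.24 in GFP cells. Of 8 trophectoderm markers 6 were called lower, with a mean of 4.89 in EWS-OCT4A-GFP cells and 8.13 in GFP cells, and Krt18, a keratin of simple epithelia, read 4.35 in EWS-OCT4A-GFP cells and 10.7 in GFP cells. The part of this difference in cell state in the values of the module was not tested. In bulk RNA, fewer cells of a type and less RNA per cell cannot be told apart.

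Markers of leukocytes, which carry many module genes, showed no such shift as a list, with a median difference of -0.03. The pan-leukocyte gene Ptprc read 2.54 in EWS-OCT4A-GFP cells and 2.87 in GFP cells, and 5 of 9 markers, Adgre1, Itgam, Tyrobp and Lyz2 with it, stayed under the floor. The leukocyte list ran from 2.14 to 7.38 in EWS-OCT4A-GFP cells and from 2.17 to 7.54 in GFP cells, with Cd3e (2.03) as its 1 called gene. Fibroblast markers averaged 3.57 in EWS-OCT4A-GFP cells and 4.22 in GFP cells, with 2 of 8 lower, Postn (-4.04) and Pdgfra (-1.15), and with Dcn and Lum under the floor in both samples. Endothelial markers were split, with Pecam1 (4.26) and Tek (2.81) higher and Cdh5 (-3.76) lower among 6 genes.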

How the data were processed

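RNA of 2 samples, 1 for each line, was read on an Affymetrix array. The authors deposited 1 table with a value for each of 33793 probe sets in each sample. Per the submitters' processing notes these are RMA summaries from Affymetrix Expression Console 1.1, and the deposited values, from 0.618 to 13.0, were taken as log2 although the table does not name the base. RMA subtracts background, equalises the arrays' distributions and summarises probes, so a shift of most transcripts would not show and weak differences are compressed. The series text speaks of duplicates, but nothing read here says whether a column joins several arrays. Precision is limited by the number of arrays. The 40 measured members matched RefSeq (GRCm38.p6) by gene ID.

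Differences are EWS-OCT4A-GFP minus GFP. No test was possible. The members, the 16 related lists (244 entries, 210 measured) and the thresholds were chosen with earlier results of these data known. From each related list up to 4 genes with the largest difference at the floor were named, with Jak1, Tyk2, Psmb8 and Psmb9 in any case, and other non-members were named after their values were seen. Counting was tested on simulated data. Alternatives were other folds (1.5 and 3), floors (none, the 75th percentile, 6), normalizations (median, quantile, loess with span 0.3) and probe set rules, and setting weak values to the floor was added after seeing the data. Python 3.11.15, numpy 2.4.6 and pandas 2.3.3 were used.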

Additional observations from a re-analysis of the deposited data

How the results depend on the processing

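No paired analysis was possible because each line has 1 sample, and no sample could be left out. The counts of 3 higher and 14 lower members turned into 5 and 15 with a 1.5-fold threshold, and 3 and 8 with a 3-fold one. Counts over all genes (1259 higher, 1608 lower) turned into 2708 and 2784, and 464 and 786. With the floor at the 75th percentile or at 6, 2 members were higher and 10 lower, and 2 and 12 with weak values set to the floor. Over all genes, 926 were higher and 1314 lower with the floor at the 75th percentile, and 873 and 1246 with it at 6. With weak values set to the floor, the counts over all genes were 1113 and 1491. Median, quantile and loess centring kept all 14 lower and 3 higher members. Averaging probe sets left 12 lower, without Tapbp (-0.87) and Ifi35 (-0.48), and moved the trophectoderm median to -2.0. Over genes at the floor, by construction fewer, the medians were -0.57 for the module, -1.78 for class I chains, -0.94 for peptide loading, -0.56 for sensors, -0.84 for effectors, 0.34 for ligands, 1.1 for other IRF genes, 0.0745 for other class I genes, 2.98 for stem cell, -0.18 for fibroblast and 1.30 for endothelial markers. A move of a median by less than 0.1 was counted as no move. How far values near the floor lie above background is unknown.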

Other observations

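Some genes read exactly the same in both samples to the 3 decimals deposited. This held for 2 of the 40 members, Isg20 and Dhx58, and for 949 of 22180 genes (4.28%). Such a difference of 0.00 is a property of the deposited summaries and carries no error estimate.

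In the class I region of chromosome 17, the lower genes Tapbp, H2-K1 and Tap1 had neighbours that differed in both directions. H2-K2, next but 1 to H2-K1, read 5.53 in EWS-OCT4A-GFP cells and 5.40 in GFP cells. Rps18, between Tapbp and H2-K1, was higher by 1.25, and Brd2, between H2-K1 and Tap1, differed by -0.53. On the other side of Tapbp, Zbtb22 differed by -0.96 and Daxx by -0.80, and B3galt4, between Tapbp and H2-K1, by -0.81, the same direction as Tapbp but within 2-fold. The genes beside Tap1, Psmb9 and Psmb8, differed by -0.37 and -0.12. These neighbours were chosen after their values were seen.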
